A study of Rattus norvegicus with 15 samples.

Results

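The step from youth to adulthood in rat knee articular cartilage was described as the difference between the 3 arrays labelled T2, adult, and the 3 labelled T1, youth. These 6 arrays are part of a series of 15, and no gene was chosen by its value: each of 18166 genes measured by a probe set with a single symbol enters. The series followed this cartilage over 5 stages, from newborn (T0) through youth and adulthood to an early (T3) and a late (T4) stage of old age, with 3 arrays a stage. Both groups compared here hold total RNA from right-knee cartilage of Sprague-Dawley rats, with no treatment or genetic change named, and differ only in the stage given by the labels. Each knee was harvested individually and its cartilage frozen and ground, and the labels call the arrays of a stage biological replicates, so the p-values below rest on the spread between such samples. Neither the rats' ages in weeks nor their sexes are in the labels, and how the tissue was cut from the joint is not described beyond hand selection. Values are log2 signals of Affymetrix RaGene 2.0 ST arrays, so a difference of 1 is a doubling, and probe sets differ in how strongly they bind, so levels are compared between arrays and not between genes.

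Articular cartilage covers the ends of bones in a joint. Its only resident cell is the chondrocyte, which lays down type II collagen fibrils and aggrecan and, in young animals, also drives lengthening of the underlying bone as it enlarges, mineralizes its matrix and gives way to bone and marrow. With skeletal maturity this growth slows, and matrix turnover in the remaining cartilage becomes very low. The tissue has no vessels or nerves of its own, whereas the bone, marrow, fat, muscle, tendon and synovial lining that surround it have distinct and well-known marker genes.

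One label is in conflict. T1 replicate 3 is youth in its title, its description and its stage label, but its source name says adult. It stays with youth here, and its values are given separately wherever it stands apart. Over all probe sets it correlated at 0.977 on average with its fellow T1 arrays, against 0.963 with those of T2. T2 replicate 1 lay nearest to youth among the adult arrays (0.969 with T1, against 0.952 for T2 replicate 2 and 0.960 for T2 replicate 3). The medians of the 6 arrays ran from 4.94 to 5.07. The median SD of a gene among the 3 arrays of a stage was 0.14 at T1 and 0.17 at T2, against 0.30 at T3 and 0.40 at T4, stages that share in the estimate of error used for the test. T4 replicate 1 stood apart from every other array. It correlated at 0.541 with T1 and 0.523 with T2, against 0.849 and 0.848 for T4 replicate 2 and 0.798 and 0.796 for T4 replicate 3. Its median over 52 ribosomal protein genes was 6.60, against 9.09 and 8.97 on those 2 arrays. It enters the error estimate, so a gene without a call may owe this to the spread at T4. The cartilage markers were present in both T1 and T2: type II collagen (Col2a1) lay between 11.40 and 12.55 on the 6 arrays and aggrecan (Acan) between 9.77 and 11.33.

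Of the 18166 genes, 115 (0.633%) rose and 115 (0.633%) fell from youth to adulthood at a limma adjusted p under 0.05. Together they were 1.27% of genes, and 1798 (9.9%) had an unadjusted p under 0.05. The median change over all genes was -0.01. In the adult 9338 genes were lower and 8828 higher. All T2 arrays lay below all T1 arrays in 13.9% of genes and above them in 13.1%. Counts of lower, higher and non-overlapping list members given below are to be read beside these values. No called gene had overlapping arrays, and the called changes ran from 0.81 to 3.06 upward and from 0.81 to 4.81 downward in size. More than a 4-fold change was seen in 26 genes that rose and 38 that fell. Among all probe sets, named or not, 179 rose and 148 fell of 36685 (0.488% and 0.403%, or 0.891% in all). Rises therefore made up 54.7% of called probe sets, and this share was 42.9% after quantile normalization, 40.0% without T2 replicate 1 and 70.0% when only the 6 arrays were fitted. Without T2 replicate 1, 222 of all probe sets fell, against 148 with it. List counts of falls given below without that array are to be read beside this increase. Genes of muscle fibres held the far left of the plot of change against p, and called neutrophil genes lay at its upper right. Of the genes that fell, 43 belong to skeletal muscle lists, and 25 of those that rose belong to neutrophil lists, both counts including lists drawn up after the values were seen. The other lists, called planned below, were themselves chosen with earlier results of these data known.

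**Figure D1:**
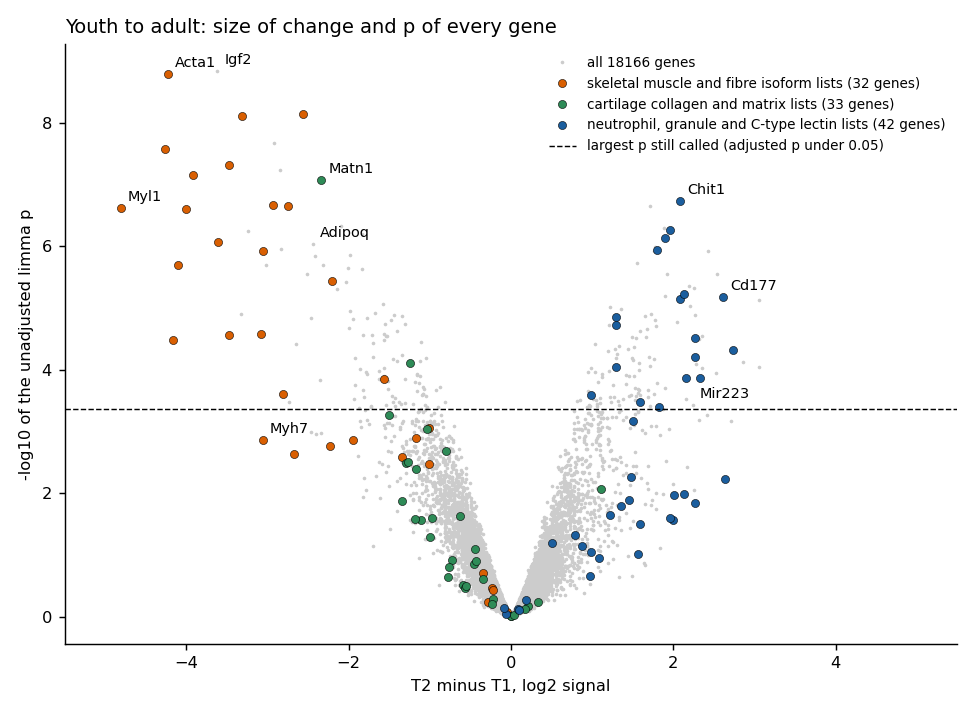
Every gene by its change from youth to adulthood (x axis, T2 minus T1, log2 signal) and its unadjusted limma p (y axis, as -log10), with muscle, cartilage and neutrophil lists in colour and the dashed line at the largest p that was still called. Muscle genes reach -4.81 (Myl1) on the left, neutrophil genes reach 2.74 on the right, and most cartilage matrix genes lie left of 0 and below the line, with Matn1 above it.

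The largest falls were those of skeletal muscle genes. Of 27 measured markers of muscle fibres 18 fell, none rose, and 25 had all T2 arrays below all T1 arrays (13.9% of all genes did). Their median change was -3.06, an 8.33-fold difference. Acta1, the actin of the sarcomere's thin filament, had 9.40, 9.90 and 9.24 in T1 and 5.06, 5.53 and 5.26 in T2, a fall of 4.23 (SE 0.31, n = 3 a stage, limma adjusted p = 2.02e-05). The mean of the 27 genes was 7.81, 8.07 and 7.05 on the T1 arrays and 4.84, 5.07 and 4.9 on the T2 arrays, so the stages did not overlap and the adult arrays lay close together. It had been 9.10 to 9.68 in the newborn. In RNA from a whole piece of tissue, fewer cells of a type and less RNA per cell cannot be told apart, here and in every group below. How much tissue other than cartilage each sample held was not tested.

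The promoters of 3 genes with large falls are shown as examples that hold sites for which muscle promoters are known. They are given as the 250 bases before the RefSeq start in GRCr8, 5′ to 3′ on the gene's strand, with motif matches in capitals: the E-box CAGCTG bound by myogenic factors such as MyoD, the CArG box bound by serum response factor, and the MEF2 box bound by the MEF2 proteins. Acta1 lies at chr19:68784195-68784444 (minus strand), with an E-box 237 to 232 bases before the start and a CArG box 94 to 85 bases before it. The promoter of Ckm, the creatine kinase of muscle, lies at chr1:88189211-88189460 (plus strand) and holds an E-box at 226 to 221 and another at 75 to 70. Ttn, the giant spring protein titin, has its promoter at chr3:82332111-82332360 (minus strand), with a MEF2 box at 166 to 157.
Acta1: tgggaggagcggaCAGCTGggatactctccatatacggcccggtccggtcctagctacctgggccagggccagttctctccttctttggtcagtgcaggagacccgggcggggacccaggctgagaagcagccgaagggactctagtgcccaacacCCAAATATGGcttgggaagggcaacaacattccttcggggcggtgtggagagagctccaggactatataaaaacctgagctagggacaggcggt
Ckm: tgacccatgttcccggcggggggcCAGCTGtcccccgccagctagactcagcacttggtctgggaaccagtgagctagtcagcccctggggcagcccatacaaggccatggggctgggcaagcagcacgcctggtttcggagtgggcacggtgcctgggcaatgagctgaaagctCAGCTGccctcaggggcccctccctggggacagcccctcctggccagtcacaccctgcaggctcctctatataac
Ttn: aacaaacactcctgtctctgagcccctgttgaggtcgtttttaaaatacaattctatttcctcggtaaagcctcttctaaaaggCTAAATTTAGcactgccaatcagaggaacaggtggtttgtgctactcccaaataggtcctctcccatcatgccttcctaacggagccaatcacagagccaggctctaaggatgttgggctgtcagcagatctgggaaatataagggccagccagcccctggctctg

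Both strands were searched, and no 2 matches overlap in these promoters. Of the 115 genes that fell, 92 had a RefSeq promoter, and 23 of these (25%) held the E-box in this window, against 11.9% of all 27457 promoters and 10 of 88 (11.4%) among genes that rose. A MEF2 box stood in 11 of the 92 (12%), against 3.07% of all promoters and 2.27% for genes that rose, and a CArG box in 3 of 92 (3.26%), against 1.5% of all and 2 of 88 (2.27%) among genes that rose. Of the 27 genes of the muscle list, 23 had a promoter. The E-box stood in 7 of these (30.4%), a MEF2 box in 2 (8.7%) and a CArG box in 2 (8.7%), so most hold none of a given site. A match describes letters in the window and not binding.

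Genes of fast and of slow muscle fibres differed in T1 replicate 3. In lists made after the values were seen, 8 of 9 isoforms of fast fibres fell and 1 of 8 isoforms of slow fibres did (5 of the 9 fast genes without T1 replicate 2 or T2 replicate 3). The fast list averaged 8.43 on T1 replicates 1 and 2, 7.95 on T1 replicate 3 and 4.97 at T2, so T1 replicate 3 lay nearer to youth than to the adult. The slow list averaged 7.51 on T1 replicates 1 and 2 but 5.36 on T1 replicate 3, which lay close to the T2 mean of 4.98.

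Myh7, the slow myosin heavy chain, had 8.82, 8.81 and 4.9 in T1 and 4.55, 4.49 and 4.32 in T2. Its difference of -3.06 (SE 0.77, n = 3 a stage) did not pass the test (limma adjusted p = 0.0911). Tnni1, the slow troponin that holds contraction in check, had 7.91, 7.43 and 5.01 in T1, and Tnnt1, which ties slow troponin to tropomyosin, 7.20, 7.34 and 4.89. In each of these genes T1 replicate 3 was the low youth array by more than 2 units. Without T1 replicate 3, 5 of the 8 slow genes fell, and 8 of the 9 fast genes (0.451% of all genes fell in that fit). In the planned muscle list 21 of 27 fell without this array, and 3 of 27 when it was placed with adult, where 0.044% of all genes fell. What the knee of T1 replicate 3 held beside cartilage was not tested.

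**Figure D2:**
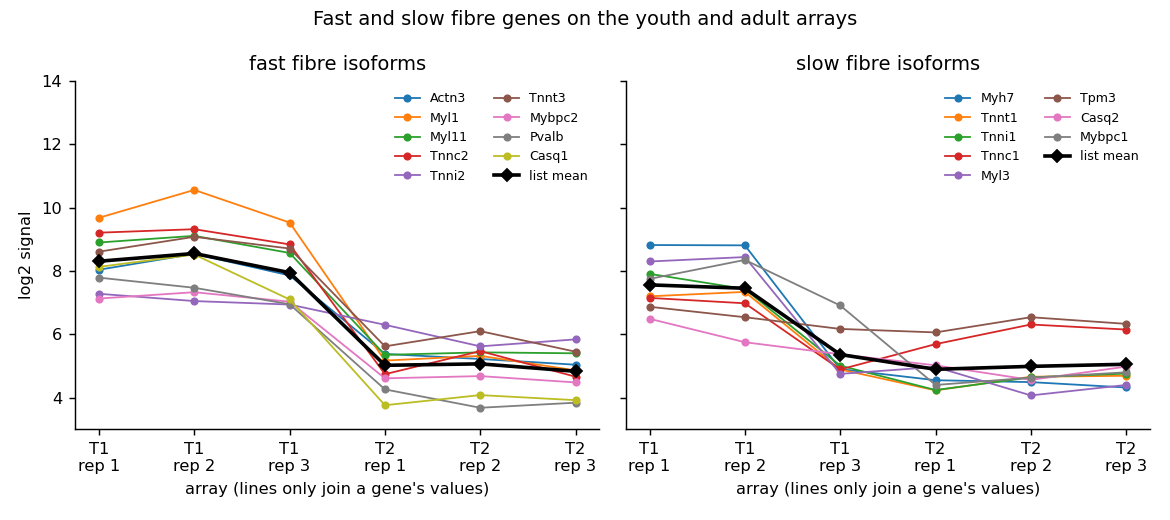
Log2 signal (y axis) of each fast (left) and slow (right) fibre gene on the 3 youth and 3 adult arrays (x axis), with the list mean in black and lines only joining the values of a gene. The fast genes stay high on T1 replicate 3 (list mean 7.95), whereas the slow genes are already low there (5.36) and stay at 4.89 to 5.05 at T2.

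Among the fast genes, Pvalb took a path of its own. Pvalb encodes parvalbumin, a calcium buffer that lets fast fibres relax quickly. It had 7.79, 7.47 and 6.95 in T1 and 4.26, 3.68 and 3.84 in T2, a fall of 3.48 (SE 0.33, n = 3 a stage, limma adjusted p = 0.000225). At T0 its mean was 4.55, so the level was high in youth only among the first 3 stages, whereas Acta1, Ckm and Ttn were highest in the newborn (11.18, 11.08 and 10.64). Myl1, the fast myosin light chain, had 9.68, 10.56 and 9.53 in T1 and 5.17, 5.32 and 4.86 in T2, the largest fall of any gene at 4.81 (SE 0.52), a 28.0-fold difference. Tnnc2, the calcium sensor of fast fibres, fell by 4.17 (SE 0.70). Other falls were those of the light chain Myl11 (-3.47, SE 0.57), the fast troponin Tnnt3 (-3.08, SE 0.50) and the fast Z-disc protein Actn3 (-2.93, SE 0.31).

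Falls were also called among genes of the filament anchors, of calcium release and of energy supply. In a list of Z-disc and M-band genes, which anchor the filaments, 15 of 17 fell (median -2.15). Neb, the ruler of the thin filament, had 8.78, 9.29 and 7.98 in T1 and 4.29, 4.66 and 4.33 in T2, a fall of 4.26 (SE 0.39). Ttn (-3.92, SE 0.38), the Z-disc protein Myot (-3.32, SE 0.27) and the crosslinker Actn2 (-4.11, SE 0.53) fell too. In Actn2, T1 replicate 3 was again the lowest youth array at 6.97, against 8.73 and 8.88.

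Of 11 genes of the triad, where a nerve impulse releases calcium, 6 fell (median -1.46). They include the calcium store protein Casq1 (-4, SE 0.43), its partner Trdn (-3.02, SE 0.39) and the release channel Ryr1 (-1.56, SE 0.30). Of 13 genes of muscle energy supply 11 fell (median -2.01): Ckm had 9.40, 9.84 and 8.94 in T1 and 5.60, 5.91 and 5.84 in T2, and fell by 3.61 (SE 0.43). With it went Ampd1, the AMP deaminase of muscle (-2.92, SE 0.26), Pygm, which breaks down glycogen (-2.47, SE 0.38), the muscle enolase Eno3 (-2.85, SE 0.28) and the oxygen store Mb (-2.81, SE 0.58). Without T1 replicate 1 or T1 replicate 2 the counts were 3 of 11 triad, 9 of 17 Z-disc and M-band and 7 of 13 energy genes; without T2 replicate 3 they were 3, 11 and 7, and without T2 replicate 2 the energy count was 7. The triad, Z-disc and energy lists were drawn up after the values were seen.

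The factors that switch on the muscle programme gave no call. None of 8 regulators was called in that list, also made after the values were seen (median -0.14). The list's mean was 7.36 at T0, 5.56 at T1, 5.36 at T2 and 5.56 at T3, so it was already near its later level in youth. Myod1 stood at -0.23 and Myog, which acts during fibre formation, at -0.05, and at an unadjusted p under 0.05 there was 1 of 8. The muscle microRNA genes Mir1, Mir133a1, Mir133b and Mir206 stood at 0.02, 0.09, -0.12 and -0.01, and none was called. Their probe sets report the primary or precursor transcript as well as the mature form, which the array cannot separate.

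**Figure D3:**
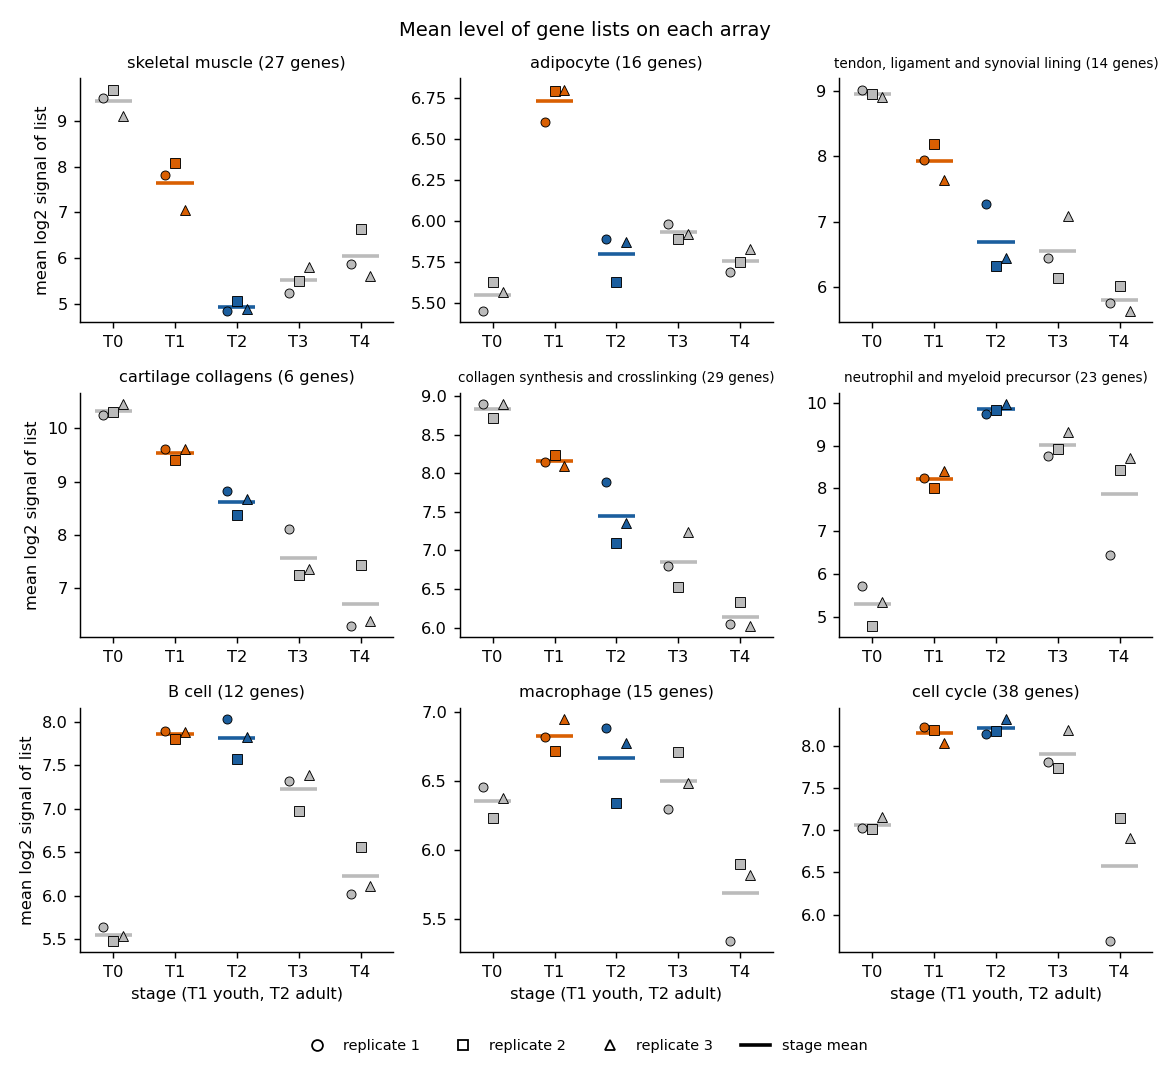
Mean log2 signal of the measured genes of 9 lists (y axis, its own scale in each panel) on each of the 15 arrays by stage (x axis), with T1 in orange, T2 in blue, other stages in grey and a bar at the stage mean. Muscle, adipocyte, tendon and collagen lists have all T2 arrays below all T1 arrays, the neutrophil list has all above, and B cell, macrophage and cell cycle lists overlap.

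Other tissues that border the joint gave fewer calls, most of them falls. Of 16 adipocyte genes 6 fell (median -0.89). The fat cell hormone Adipoq had 7.16, 7.68 and 7.68 in T1 and 5.58, 4.26 and 5.36 in T2, a fall of 2.44 (SE 0.30, n = 3 a stage, limma adjusted p = 0.00119). The newborn arrays had 4.22, 4.34 and 4.36, so T2 replicate 2 was at the newborn level and T2 replicates 1 and 3 lay above it. Lpl, which frees fatty acids from blood lipids, fell by 1.99 (SE 0.25), as did Thrsp, a regulator of fat synthesis (-2, SE 0.32), Scd, which desaturates fatty acids (-1.58, SE 0.23), and the lipid droplet coats Plin1 (-1.40, SE 0.23) and Plin4 (-1.11, SE 0.19). Dgat2, which makes triglyceride, went against the list at 1.24 (SE 0.28, limma adjusted p = 0.0585), with 6.78, 6.73 and 6.99 in T1 and 8.15, 8.28 and 7.78 in T2. The count of 6 was 3 without T1 replicate 2, and 0 with T1 replicate 3 placed with adult.

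Tendon and ligament genes fell in 3 of 14 cases (median -0.85), and all 14 were lower. Tnmd, the membrane protein tenomodulin of mature tendon, had 7.79, 7.91 and 6.29 in T1 and 4.64, 4.12 and 3.5 in T2, a difference of -3.24 (SE 0.38, limma adjusted p = 0.000943). The keratan sulfate proteoglycan Kera had 6.83, 7.29 and 5.38 in T1 and 3.48, 2.84 and 3.20 in T2, a difference of -3.33 (SE 0.51, limma adjusted p = 0.00614). In both genes T1 replicate 3 was the lowest youth array, as it was for muscle. Pdpn, a surface protein of synovial lining cells, fell by 1.45 (SE 0.31), a call kept in 7 of 18 alternatives.

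Vessel wall markers gave 1 call in 10 genes of smooth muscle and pericytes (Des, -2.51, SE 0.33, median of the list -0.90) and 2 in 10 genes of endothelium (median -0.63). Des encodes desmin, a filament of skeletal as well as smooth muscle. The endothelial junction protein Cdh5 had 8.67, 8.58 and 8.48 in T1 and 7.78, 6.42 and 7.22 in T2 (-1.43, SE 0.31), and the diaphragm protein Plvap had 7.40, 7.46 and 7.14, then 6.57, 5.89 and 6.37 (-1.06, SE 0.23). Neither endothelial call remained without any single array other than T2 replicate 1, and neither remained with only the 6 arrays fitted. In a list of basement membrane genes made after the values were seen, each of 9 had all T2 arrays below all T1 arrays (13.9% of all genes did). Of these, 3 fell: the type IV collagen Col4a1 at -1.44 (SE 0.22) and the laminin chains Lama2 at -1.56 (SE 0.29) and Lama4 at -1.07 (SE 0.22). The count was 1 without any single array other than T2 replicate 1, and 4 without that one.

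Bone genes gave a single call a list. Of 13 osteoblast and osteocyte genes, Phex, a phosphate regulator of osteocytes, fell by 1.93 (SE 0.41, limma adjusted p = 0.0406), and all 13 were lower (median -0.65). Phex had 8.83, 9.37 and 9.01 in T1 and 8.05, 6.73 and 6.63 in T2, and lost its call without any single array of the 6 except T2 replicate 1, without which 2 of the 13 fell. Of 6 osteoclast genes, the receptor Oscar rose by 1.26 (SE 0.25) while the other 5 were lower (median -0.44), with the collagen-degrading Ctsk at -0.91 and Mmp9 at -0.06. The Oscar call was lost without any 1 of the 6 arrays. The bone matrix gene Bglap stood at -0.03. None of 10 nerve and Schwann cell genes was called (2 at an unadjusted p under 0.05, median -0.21).

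Igf2 had the smallest p of any gene beside Acta1. Igf2 encodes a fetal growth factor expressed from the paternal allele. It had 8.80, 9.46 and 9.11 in T1 and 5.67, 5.13 and 5.70 in T2, a fall of 3.62 (SE 0.26, 12.3-fold, n = 3 a stage, limma adjusted p = 2.02e-05). The call remained in 17 of 18 alternatives, all but the one with T1 replicate 3 placed with adult. By T2 the gene had reached the level it held at T3, where its mean was 5.39.

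In the list of imprinted and juvenile growth genes 2 of 16 fell (median -0.74). The second was Plagl1, an imprinted zinc finger factor, which had 8.62, 8.85 and 8.67 in T1 and 7.60, 6.59 and 6.89 in T2 (a fall of 1.68, SE 0.26, limma adjusted p = 0.00593). Grb10, an imprinted brake on insulin and IGF receptors, stood at -1.13 (SE 0.27, limma adjusted p = 0.0694), the cell cycle inhibitor Cdkn1c at -0.98 (SE 0.23, limma adjusted p = 0.0653), and the imprinted ligand Dlk1 at -0.83 (SE 0.28, limma adjusted p = 0.292). Outside the list, Gnas, the alpha subunit of a stimulatory G protein from an imprinted locus, fell by 1.86 (SE 0.35), and the amino acid carrier Slc38a4 by 1.95 (SE 0.30). Both were chosen after their values were seen, and the Gnas call was lost without T1 replicate 1, T1 replicate 2, T2 replicate 2 or T2 replicate 3. Slc38a4 had 6.30, 5.88 and 5.02 in T1 and 3.77, 3.85 and 3.73 in T2.

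Of 19 genes of the IGF axis, 1 fell. Igfbp6, a binding protein that prefers IGF-II, had 7.95, 7.73 and 7.86 in T1 and 6.42, 5.71 and 5.91 in T2, a fall of 1.83 (SE 0.30, limma adjusted p = 0.0095). No gene of the list was called without T1 replicate 1, T2 replicate 2 or T2 replicate 3, and 3 were without T2 replicate 1. Igf1, the growth factor under growth hormone control, stood at -0.76 (SE 0.27, limma adjusted p = 0.313), and the growth hormone receptor Ghr at -1.44 (SE 0.35, limma adjusted p = 0.0845). The list's median was -0.49.

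**Figure D4:**
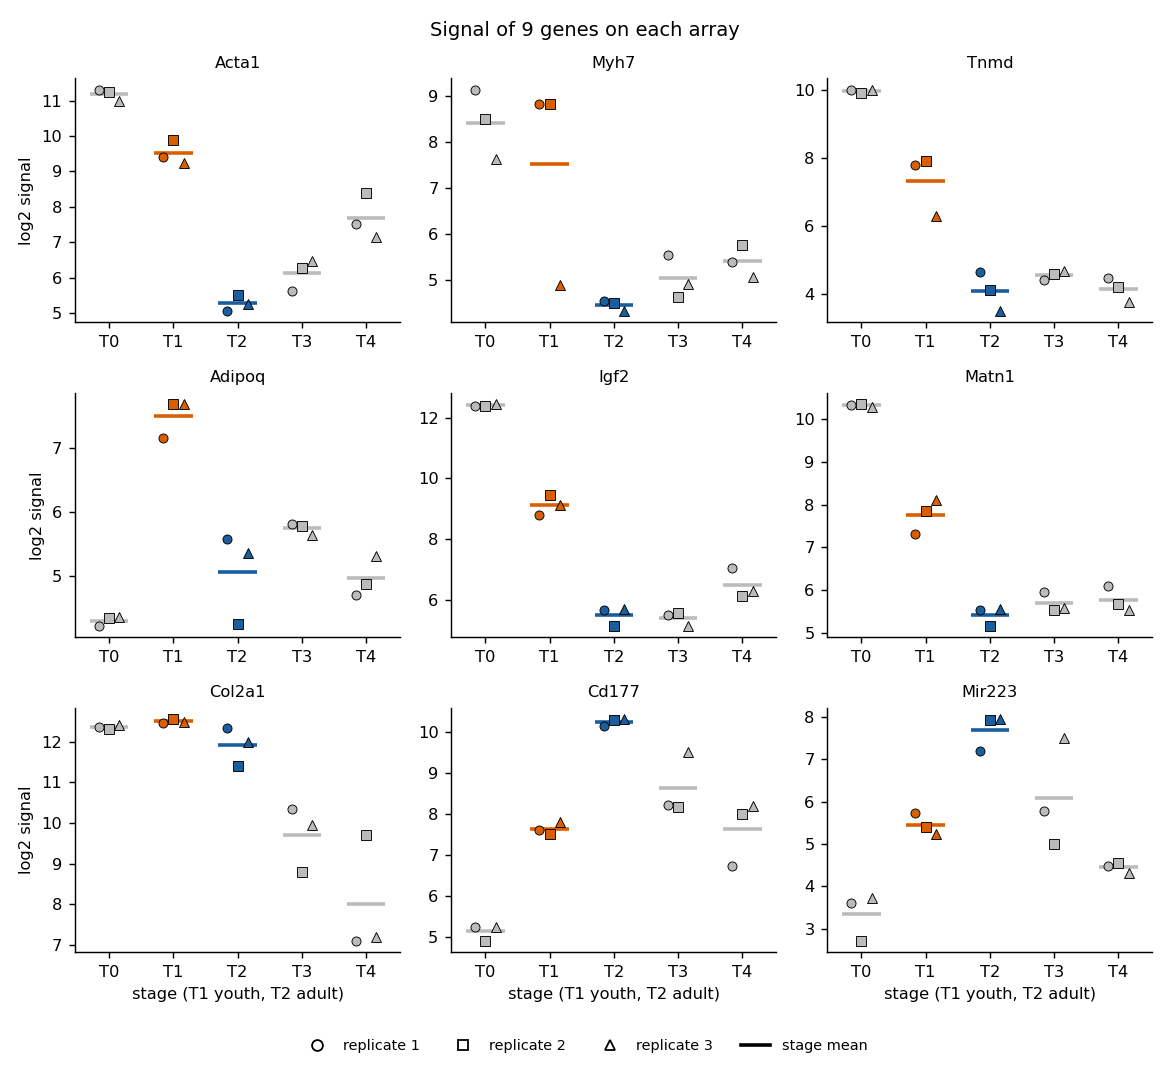
Log2 signal (y axis, its own scale in each panel) of 9 genes on each of the 15 arrays by stage (x axis), with T1 in orange, T2 in blue, other stages in grey and a bar at the stage mean. Acta1, Tnmd, Adipoq, Igf2 and Matn1 fall from T1 to T2, Myh7 is already low on T1 replicate 3, Col2a1 moves by -0.59, and Cd177 and Mir223 have their highest stage mean at T2.

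Genes of the cartilage matrix were lower in the adult by smaller amounts, and few passed the test. Of 6 cartilage collagens, 1 fell, and each of the 6 had all T2 arrays below all T1 arrays, as 13.9% of all genes did (median -0.96). Col9a2, a chain of the type IX collagen that sits on the surface of type II fibrils, had 8.10, 8.15 and 8.43 in T1 and 7.04, 6.78 and 7.14 in T2, a fall of 1.24 (SE 0.23, n = 3 a stage, limma adjusted p = 0.0181). That call was lost without any single array of the 6 except T2 replicate 1. Col9a1 stood at -1.11 (SE 0.45), and the type XI chains Col11a1 and Col11a2, which start the fibril, at -1.18 (SE 0.47) and -0.80 (SE 0.21).

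Col2a1, the bulk collagen of cartilage, had 12.47, 12.55 and 12.48 in T1 and 12.34, 11.40 and 11.99 in T2. Its difference of -0.59 had an SE of 0.56 and an adjusted p of 1 in limma, and T2 replicate 1 lay within 0.13 of the nearest youth array. When the spread came from the 9 arrays of T0, T1 and T2, 4 of the 6 cartilage collagens fell, where 1.73% of all genes fell. It was 3 of 6 with only the 6 arrays, where 0.716% fell. The changes themselves are the same in these fits.

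Of 27 proteoglycans and other matrix proteins, Matn1 fell, the cartilage matrix protein matrilin-1 that links collagen and aggrecan. It had 7.31, 7.86 and 8.11 in T1 and 5.54, 5.15 and 5.56 in T2, a fall of 2.34 (SE 0.23, 5.07-fold, limma adjusted p = 0.000285). The call remained in 17 of 18 alternatives. In T1 replicate 3 Matn1 was at its highest youth value, so this array sat at the youth end for Matn1 and near the adult end for slow muscle.

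The list's median was -0.56, 3 genes fell without T2 replicate 1, and 9 of 27 had all T2 arrays below all T1 arrays (13.9% of all genes did). Acan had 11.14, 11.33 and 11.04 in T1 and 10.60, 9.77 and 10.15 in T2 (-1, SE 0.47, limma adjusted p = 0.596). Hapln1, which locks aggrecan to hyaluronan, stood at -1.04 (SE 0.25, limma adjusted p = 0.0718), and Ucma, a secreted protein of the resting zone, at -1.50 (SE 0.34, limma adjusted p = 0.0561). Prg4, the joint lubricant lubricin, had 10.81, 10.96 and 10.59 in T1 and 11.69, 9.79 and 11.38 in T2. Its difference of 0.17 (SE 0.51) turned negative without T2 replicate 1 (-0.20), without T2 replicate 3 (-0.04) and with T1 replicate 3 placed with adult (-0.02). Cilp, a protein of the middle zone that accumulates with age, was higher at 7.20, 7.43 and 7.43 in T1 and 8.48, 8.22 and 8.69 in T2 (1.11, SE 0.36, limma adjusted p = 0.254).

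Genes of growth plate hypertrophy had a median of -0.87 over 17 genes. Col10a1, the collagen of hypertrophic cells, had 11.09, 10.86 and 10.18 in T1 and 9.58, 8.45 and 8.90 in T2, a difference of -1.73 (SE 0.38, limma adjusted p = 0.0471). It was the 1 call of the list and remained in 4 of 18 alternatives, losing its call without any single array of the 6 except T2 replicate 1. In 11 of the 17 genes all T2 arrays lay below all T1 arrays, against 13.9% of all genes. Among the uncalled were the hypertrophic channel protein Panx3 (-1.40, SE 0.44), the collagenase Mmp13 (-1.13, SE 0.67), the PTHrP receptor Pth1r (-1.04, SE 0.46) and the growth plate signal Ihh (-0.70, SE 0.27).

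None of 15 chondrocyte transcription factors was called (2 at an unadjusted p under 0.05, median -0.25). Sox9, the master regulator of the chondrocyte, had 5.31, 5.68 and 5.34 in T1 and 5.25, 5.13 and 5.31 in T2 (-0.21, SE 0.18, limma adjusted p = 0.983). Its probe set lay near the array medians of 4.94 to 5.07, with stage means of 5.12 to 5.58 over the 5 stages. A change of Sox9 could therefore be missed. Of 11 superficial zone genes Postn fell, the matricellular protein periostin of loaded connective tissue. It had 10.60, 9.49 and 9.08 in T1 and 8.48, 6.21 and 6.24 in T2 (-2.74, SE 0.58, limma adjusted p = 0.0425), with T2 replicate 1 well above the other adult arrays. The call remained in 7 of 18 alternatives. The list's median of -0.22 became 0.17 without T2 replicate 2.

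Collagen synthesis genes were lower almost throughout. Of 29 genes that fold, modify and crosslink collagen, 28 were lower in the adult, 21 had no overlap between stages and 3 fell (median -0.71). Over all 18166 genes 9338 were lower, and 13.9% had all T2 arrays below all T1 arrays. The crosslinking oxidase Loxl4 had 8.44, 8.78 and 8.01 in T1 and 7.36, 6.10 and 6.64 in T2 (a fall of 1.71, SE 0.28, limma adjusted p = 0.0095). The prolyl 4-hydroxylase subunit P4ha3 had 6.93, 6.73 and 6.74 in T1 and 5.90, 5.39 and 5.76 in T2 (1.12, SE 0.20), and P3h4, a partner of the lysyl hydroxylase, fell by 1.21 (SE 0.26). The collagen chaperone Serpinh1 stood at -1.16 (SE 0.29, limma adjusted p = 0.085). T2 replicate 1 was the adult array nearest to youth, with a list mean of 7.89 against 7.09 and 7.35, and without it 7 of the 29 fell. In that fit 222 of all probe sets fell, against 148 with all arrays. The list's count was 1 without T1 replicate 3 or T2 replicate 2, and 0 without T1 replicate 1, T1 replicate 2 or T2 replicate 3.

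Of 18 collagens found mainly outside cartilage 2 fell and all 18 were lower (median -0.98), 16 of them with no overlap (13.9% of all genes were lower without overlap). The count was 4 without T2 replicate 1 and 1 without any other single array of the 6. Col6a2, a chain of the pericellular type VI collagen, fell by 1.08 (SE 0.22, limma adjusted p = 0.0314), and Col4a1 has been given above. Col1a1, the main collagen of bone and tendon, stood at -0.53 (SE 0.68), and Col3a1 of loose connective tissue at -1.82 (SE 0.63). None of 24 genes of chondroitin sulfate synthesis was called (4 at an unadjusted p under 0.05, median -0.12), with the sulfotransferase Chst12 highest at 0.85 (SE 0.26) and Chst11 lowest at -0.77.

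Among 26 matrix proteases and inhibitors, Mmp14 fell, a membrane-bound collagenase. It had 9.55, 9.30 and 9.28 in T1 and 8.61, 7.30 and 7.52 in T2 (a fall of 1.56, SE 0.30, limma adjusted p = 0.0236). The call was lost with only the 6 arrays fitted and without any single one of them except T2 replicate 1. Mmp2, which Mmp14 activates, stood at -1.50 (SE 0.48), and Mmp8, the collagenase of neutrophils, at 2.27 (SE 0.82, limma adjusted p = 0.335). The aggrecanases Adamts4 and Adamts5 stood at -0.19 and -0.44. The list's median was -0.48.

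**Figure D5:**
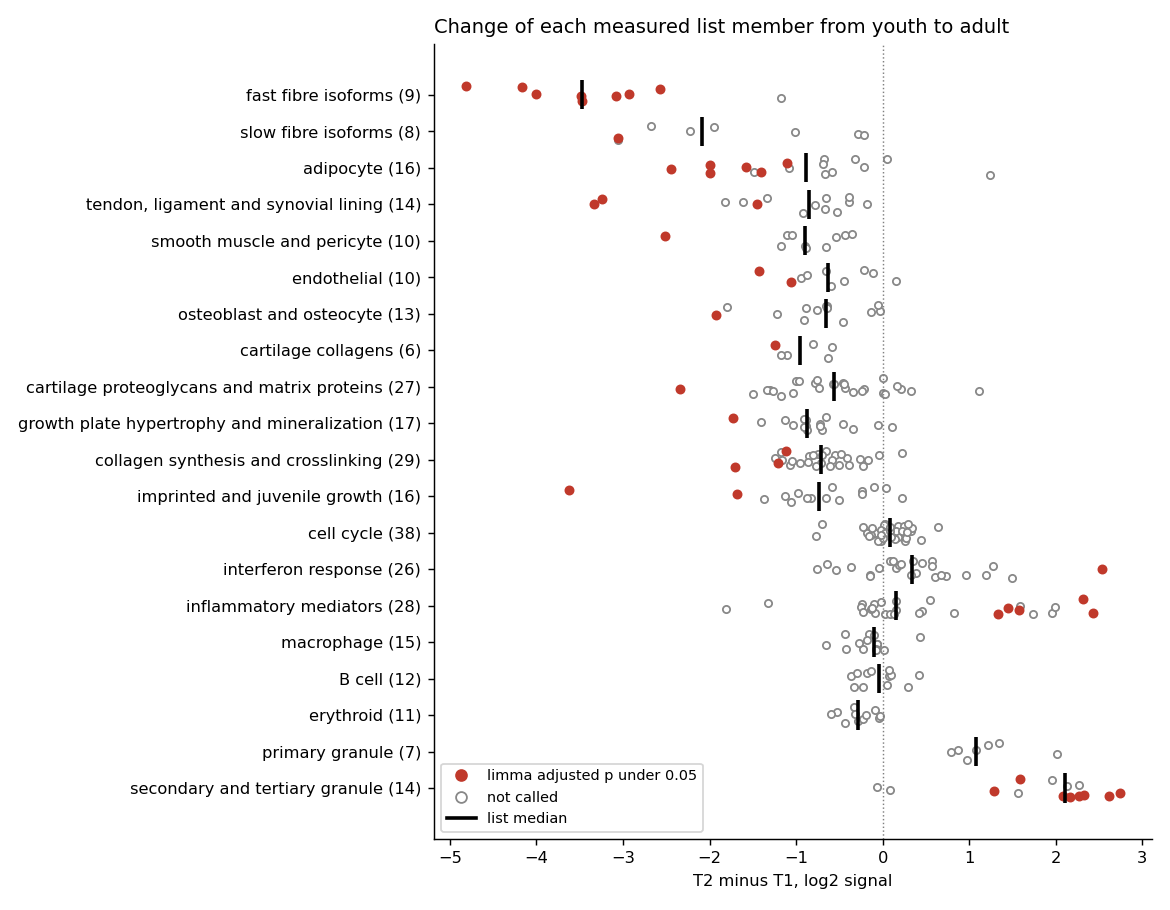
Change of each measured gene from youth to adulthood (x axis, T2 minus T1, log2 signal) in 20 lists (y axis, number of measured genes in brackets), with called genes in red, others open and a bar at the list's median. Medians run from -3.47 in fast fibre genes to 2.10 in secondary and tertiary granule genes, and the cell cycle, macrophage and B cell lists stay within 0.10 of 0.

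Signalling genes gave scattered calls. In TGF-beta signalling (17 genes, median -0.23) the ligand Tgfb3 fell by 1.63 (SE 0.31), from 7.75, 8.06 and 7.72 to 7.07, 6.01 and 5.57, and the activin subunit Inhba rose by 1.12 (SE 0.21), from 6.71, 6.61 and 6.57 to 7.89, 7.76 and 7.59. In BMP signalling (28 genes, median -0.41) the follistatin-like Fstl1 fell by 1.19 (SE 0.23). In Wnt signalling (35 genes, median -0.49) the soluble inhibitor Sfrp5 fell by 1.41 (SE 0.25) and Rspo3, which amplifies Wnt signals, by 1.52 (SE 0.31). Each of these 5 calls was lost when T1 replicate 1, T1 replicate 3, T2 replicate 2 or T2 replicate 3 was left out singly. Without T1 replicate 2 no TGF-beta or BMP gene was called, and 1 Wnt gene fell. The Inhba call was also lost without T2 replicate 1. Without T2 replicate 1, 2 TGF-beta, 6 BMP and 3 Wnt genes fell, where falls over all probe sets were 222, against 148 with it. None of 20 FGF, hedgehog and PTHrP genes was called (9 at an unadjusted p under 0.05, median -0.57).

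Neutrophil genes were the list with the highest median among those planned, which were chosen with earlier results of these data known. Of 23 markers of neutrophils and their precursors 6 rose, all 23 were higher, and 21 had all T2 arrays above all T1 arrays (13.1% of all genes did). Their median was 1.59. Their mean was 8.23, 8.01 and 8.40 in T1 and 9.74, 9.84 and 9.96 in T2, so the stages lay 1.34 or more apart and T1 replicate 3 stood with youth. The newborn had been at 4.78 to 5.73. Cd177, a surface protein of neutrophils that carries proteinase 3, had 7.59, 7.5 and 7.79 in T1 and 10.13, 10.28 and 10.30 in T2, a rise of 2.61 (SE 0.38, 6.11-fold, n = 3 a stage, limma adjusted p = 0.00396).

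The other 5 calls of this list cover granules, adhesion and migration. Hp, the haemoglobin-binding haptoglobin, had 5.93, 6.01 and 6.74 in T1 and 8.57, 9.22 and 9.13 in T2 (2.74, SE 0.48). Itgam, the CD11b integrin chain, had 6.89, 6.75 and 7.02 in T1 and 9.05, 9.28 and 9.13 in T2 (2.27, SE 0.40), and Cxcr2, the chemokine receptor that releases neutrophils from marrow, had 7.12, 6.63 and 7.01, then 9.17, 8.76 and 9.63 (2.27, SE 0.38). Chit1, a chitinase, rose by 2.08 (SE 0.22), with the smallest p of the list (limma adjusted p = 0.000519). Padi4, which citrullinates histones, rose by 1.29 (SE 0.20).

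How many neutrophil genes passed turned on which arrays set the spread. It was 6 of 23 with all 15 arrays, 19 with only the 6 arrays (1.52% of all genes rose there), 13 with the 9 arrays of T0 to T2 (2.39%) and 12 without the T4 arrays (1.41%, beside 0.941% that fell). It was 6 without T1 replicate 3 (0.292%), 3 without T1 replicate 2 or T2 replicate 3, and 0 with T1 replicate 3 placed with adult, where 0% of genes rose. In the fits with all 15, the 6 or the 9 arrays the changes are the same, and the error differs.

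The promoter of Itgam, chr1:192089342-192089591 of GRCr8 on the plus strand, is shown for its C/EBP site, since C/EBP factors drive the granulocyte programme. The 250 bases before the RefSeq start follow 5′ to 3′, with the match in capitals, 199 to 192 bases before the start and in reverse orientation.
Itgam: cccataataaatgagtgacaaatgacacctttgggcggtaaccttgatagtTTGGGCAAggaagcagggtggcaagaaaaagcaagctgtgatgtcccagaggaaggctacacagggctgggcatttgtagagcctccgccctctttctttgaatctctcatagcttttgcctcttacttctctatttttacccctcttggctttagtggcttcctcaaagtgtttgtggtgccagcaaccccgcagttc

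The motif searched was TTGCNNAA on both strands. It stood in 14 of 88 promoters of genes that rose (15.9%), 11 of 92 of genes that fell (12%) and 9.2% of all promoters. The letters GAGGAAGT, a site of the myeloid factor PU.1, stood in 5 of 88 (5.68%), 1 of 92 (1.09%) and 2.04% of all. The transcript of Cebpe, the C/EBP factor of late granulocyte maturation, had 6.50, 6.27 and 6.15 in T1 and 7.54, 7.56 and 7.73 in T2. It rose by 1.31 (SE 0.23, limma adjusted p = 0.0148), and was chosen after its values were seen; the call was lost without T1 replicate 2, T1 replicate 3, T2 replicate 2 or T2 replicate 3.

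Within the granulocyte genes, those of early and late granules gave different values. Primary granules form in the promyelocyte, secondary and tertiary granules in later cells. In lists made after the values were seen, none of 7 primary granule genes was called (median 1.08, 4 at an unadjusted p under 0.05), and 8 of 14 secondary and tertiary granule genes rose (median 2.10), of which Cd177, Chit1, Hp, Padi4 and Itgam are the called genes of the first list again. Padi4, which acts on histones, is counted among the 8. The count of 8 was 3 without T1 replicate 1, T1 replicate 2, T2 replicate 2 or T2 replicate 3 and 5 without T1 replicate 3. The count of 0 for primary granules also turned on the arrays fitted. With only the 6 arrays, 5 of the 7 primary and 11 of the 14 later granule genes rose, where 1.52% of all genes did. With the 9 arrays of T0 to T2 these counts were 3 and 10, where 2.39% rose. The difference between the lists was not tested. The primary granule list averaged 9.40, 9.54 and 9.78 in T1 and 10.76, 10.70 and 10.80 in T2, again without overlap.

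Mpo, the peroxidase of primary granules, had 10.67, 11.04 and 10.96 in T1 and 12.05, 11.78 and 12.07 in T2 (1.08, SE 0.64, limma adjusted p = 0.797). Elane, neutrophil elastase, stood at 1.35 (SE 0.49, limma adjusted p = 0.353). Among later granule genes Pglyrp1, which binds bacterial cell walls, rose by 2.33 (SE 0.45), Orm1, an acute phase protein stored in granules, by 2.16 (SE 0.42), and the protease inhibitor Slpi by 1.59 (SE 0.34). The antimicrobial Camp (2.13, SE 0.72) and the cytosolic S100a8 (1.99, SE 0.81) and S100a9 (1.59, SE 0.67) did not pass, each with all T2 arrays above all T1 arrays. Defa11, an alpha-defensin that is in neither granule list, had 8.33, 8.16 and 8.72 in T1 and 11.46, 11.20 and 11.13 in T2. It rose by 2.86 (SE 0.52, limma adjusted p = 0.0176). The call was lost without T1 replicate 1, T1 replicate 2, T2 replicate 2 or T2 replicate 3. Defensins are a family of near-identical copies, and probes may be shared between them.

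Some receptors that guide neutrophils rose. Of 8 chemoattractant receptors, in a list made after the values were seen, 5 rose (median 1.37), and 2 without T1 replicate 2 or T2 replicate 3 and 3 without T1 replicate 1 or T2 replicate 1. Beside Cxcr2 they were the receptors of leukotriene B4 (Ltb4r, 1.29, SE 0.24), of short-chain fatty acids (Ffar2, 1.29, SE 0.20), of platelet-activating factor (Ptafr, 0.99, SE 0.20) and of ADP (P2ry13, 1.96, SE 0.23). P2ry13 had 5.95, 5.61 and 5.78 in T1 and 7.94, 7.34 and 7.92 in T2. Csf3r, the receptor of the growth factor G-CSF, had 7.25, 6.96 and 7.30, then 8.60, 8.59 and 8.83 (1.5, SE 0.35, limma adjusted p = 0.0634).

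Of 9 C-type lectin and TREM receptors 5 rose (median 1.80, list made after the values were seen). Trem1, which amplifies the inflammatory response, had 6.99, 7 and 7.25 in T1 and 8.91, 8.61 and 9.13 in T2 (1.80, SE 0.22, limma adjusted p = 0.00121). Trem3 rose by 1.90 (SE 0.23), Clec4e, a sensor of mycobacterial glycolipid, by 2.08 (SE 0.30), Clec5a by 2.13 (SE 0.30) and Clec4d by 1.82 (SE 0.40). Trem2, the family member of macrophages and osteoclasts, stood at -0.09.

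Of 5 subunits of the NADPH oxidase, again a list made after the values were seen, 2 of the cytosolic ones rose: Ncf1 by 1.68 (SE 0.27) and Ncf4 by 1.44 (SE 0.25). The membrane subunits Cybb and Cyba stood at 1.24 (SE 0.60) and 0.45 (SE 0.31). Both calls were lost without T1 replicate 2 or T2 replicate 3, and 1 without T1 replicate 1 or T1 replicate 3. Ncf1 had 8.05, 7.86 and 8.23 in T1 and 9.65, 9.76 and 9.76 in T2. Further genes known from neutrophils, chosen after their values were seen, were the Src kinase Fgr (1.29, SE 0.23), the hexokinase Hk3 (1.72, SE 0.26), the phagosomal metal carrier Slc11a1 (1.12, SE 0.22), the endotoxin-cleaving Aoah (1.77, SE 0.28) and the kinase Bmx (1.92, SE 0.26), each of which rose.

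Mir223, the microRNA gene best known from neutrophils, was the 1 microRNA gene of 363 that was called. It is shown by its mature forms, from RefSeq GRCr8 on chromosome X, plus strand (chrX:65151450-65151470 for the 3p arm and chrX:65151408-65151430 for the 5p arm), 5′ to 3′ with the seed, bases 2 to 8, in capitals.
rno-miR-223-3p: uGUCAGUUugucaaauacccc
rno-miR-223-5p: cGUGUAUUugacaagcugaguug
Its probe set had 5.72, 5.41 and 5.23 in T1 and 7.20, 7.92 and 7.94 in T2, a rise of 2.24 (SE 0.48, 4.71-fold, n = 3 a stage, limma adjusted p = 0.0454). The stages did not overlap. The T0 mean was 3.35, and T2 held the highest stage mean. The call remained in 8 of 18 alternatives and was lost without any single array of the 6 except T2 replicate 1, so it stands near the threshold. The probe set does not separate the arms or the mature form from the primary transcript.

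At an unadjusted p under 0.05, 12 microRNA genes were higher, Mir223 included, and 4 lower. Mir21, which many cells induce, had 4.55, 4.12 and 4.13 in T1 and 5.92, 5.80 and 4.75 in T2 (1.22, SE 0.32, limma adjusted p = 0.118). Mir142 of blood cells stood at 1.21 (SE 0.35, limma adjusted p = 0.163) and Mir140 of cartilage at -0.02 (SE 0.26). Of 39 long non-coding RNA genes with a symbol none was called by limma, and 3 had an unadjusted p under 0.05. Meg3, an imprinted long non-coding RNA, stood at -0.59 (SE 0.25).

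The lists of B, T and natural killer, macrophage, erythroid and mast cell markers held no called gene. None of 12 B cell genes was called (median -0.04, none at an unadjusted p under 0.05), none of 15 macrophage genes (median -0.10, likewise none), and none of 13 T and natural killer cell genes (median 0.06, 2 at an unadjusted p under 0.05). The B cell mean was 7.89, 7.80 and 7.88 in T1 and 8.03, 7.57 and 7.83 in T2, so the stages overlapped. All 11 erythroid genes were lower without a call (median -0.29, none at an unadjusted p under 0.05), from a mean of 9.03, 9 and 8.87 to 8.56, 8.60 and 8.90. Csf1r, the growth factor receptor of macrophages, stood at -0.66 (SE 0.42), and Nkg7 of cytotoxic cells at 1.54 (SE 0.44, limma adjusted p = 0.163), with 8.64, 8.61 and 8.85 in T1 and 10.36, 10.13 and 10.24 in T2.

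None of 10 mast cell genes was called (median 0.40, 3 at an unadjusted p under 0.05). Ms4a2, the beta chain of the IgE receptor, had 5.44, 6.07 and 5.77 in T1 and 7.28, 8.54 and 7.32 in T2 (1.95, SE 0.47, limma adjusted p = 0.0718). Outside the list, the mast cell protease Mcpt10 rose by 1.87 (SE 0.41, limma adjusted p = 0.0489), a call lost without any 1 of the 6 arrays. Genes that RefSeq classes as V segments gave 3 rises in 48 measured, and 36 were higher. The called segments were LOC690781 (3.05, SE 0.56), LOC690359 (1.58, SE 0.32) and LOC690275 (1.48, SE 0.31), named after their values were seen. LOC690781 had 3.18, 4.98 and 3.30 in T1 and 6.52, 6.02 and 8.08 in T2, a wide spread within each stage.

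Inflammatory mediators divided. Of 28 genes 18 were higher and 10 lower, and changes ran from -1.81 to 2.43. Among the lower genes 3 had all T2 arrays below all T1 arrays, and no fall was called. In all 5 rose (median 0.16): the decoy receptor Il1r2, Alox5, Tlr2, Nos2 and Il1rn. Il1r2, which captures interleukin-1, had 6.12, 5.91 and 6.34 in T1 and 8.38, 8.47 and 8.82 in T2 (2.43, SE 0.30, limma adjusted p = 0.00121). Alox5, which starts leukotriene synthesis, had 6.80, 6.73 and 7.01, then 8.83, 9.38 and 9.29 (2.32, SE 0.39, limma adjusted p = 0.00975), and the bacterial sensor Tlr2 rose by 1.33 (SE 0.23). Il1rn, the interleukin-1 receptor antagonist, rose by 1.45 (SE 0.30). Outside this list and chosen after its values were seen, Il18rap, a chain of the interleukin-18 receptor, rose by 2.26 (SE 0.32). The cytokines themselves were not called: Il1b stood at 0.82 (SE 0.28), Il6 at -0.09 (SE 0.26) and Tnf at -0.10 (SE 0.26), and Ptgs2, the inducible cyclooxygenase, at 0.16 (SE 0.33). Without T1 replicate 1, T1 replicate 2 or T2 replicate 2 the count of 5 was 1, and without T2 replicate 3 it was 2.

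Interferon response genes spread widely within both stages. Oas1k, of the antiviral oligoadenylate synthetases, was the 1 call of 26 (2.53, SE 0.48, limma adjusted p = 0.0226), with 5.92, 6.04 and 6.28 in T1 and 7.95, 9.23 and 8.67 in T2. It was lost without any single array of the 6 except T2 replicate 1, without which 2 of the 26 rose. The list's mean was 7.04, 6.54 and 7.40 in T1 and 6.44, 7.25 and 8.48 in T2. The regulator Irf7 had 6.95, 8.24 and 10.16 on the adult arrays against 9.46, 8.44 and 9.72 in youth, and Isg15, a ubiquitin-like modifier, 4.79, 6.58 and 8.91 against 7.64, 6.51 and 8.06. Ifit1 was at 4.53 on T1 replicate 2 and at 9.57 and 10.38 on the other youth arrays. The median of 0.34 became 0.75 without T2 replicate 1 and -0.11 without T2 replicate 3, so its sign turned with 1 array.

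In the class II antigen presentation list RT1-Bb rose by 1.42 (SE 0.28, limma adjusted p = 0.0291), from 5.27, 5.70 and 5.82 to 7.62, 6.76 and 6.66. Its partner chain RT1-Ba stood at -0.42 (SE 0.24), from 6.82, 6.95 and 6.76 to 6.75, 6.06 and 6.47. The other 9 of 11 gave no call (median of the list 0.21), and RT1-Bb lost its call without any 1 of the 6 arrays. None of 16 complement genes was called (1 at an unadjusted p under 0.05), with C3 at 1.60 (SE 0.49, limma adjusted p = 0.211).

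Cell division genes gave no call. None of 38 was called (median 0.09), and 2 had an unadjusted p under 0.05, Ccnd1 at -0.77 (SE 0.33) and Ccnd2 at -0.70, both cyclins that answer growth signals. Rrm2, which supplies nucleotides for DNA synthesis, was the highest at 0.64 (SE 0.68). The list's mean was 8.22, 8.18 and 8.03 in T1 and 8.14, 8.17 and 8.31 in T2. None of 15 genes of arrest and senescence was called either (2 at an unadjusted p under 0.05, median -0.09).

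Genes of energy use gave calls in the muscle forms and in 1 glucose carrier. Among 27 nuclear subunits of the respiratory chain, Cox6a2, the subunit of heart and skeletal muscle, fell by 2.01 (SE 0.26), from 7.32, 7.74 and 7.05 to 5.32, 5.21 and 5.54. The other 26 gave no call, and the median was -0.21. Of 22 hypoxia and glycolysis genes, Eno3 fell, as given above, and Slc2a3, the high-affinity glucose transporter of white cells and neurons, rose by 1.59 (SE 0.26, limma adjusted p = 0.00859), from 7.08, 6.81 and 6.66 to 8.34, 8.74 and 8.24. The Slc2a3 call was lost without T1 replicate 2 or T2 replicate 2. The median of the list was -0.18.

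No gene was called among 25 antioxidant enzymes (median -0.08), 20 autophagy and FoxO genes (-0.04), 28 secretory pathway genes (0.02), 15 clock genes (-0.17), 21 immediate early genes (-0.12) or 16 limb Hox genes (-0.34). At an unadjusted p under 0.05 these lists held 5, 2, 3, 6, 3 and 2 genes. The clock repressor Nr1d1 stood at -1.77 (SE 0.41, limma adjusted p = 0.063), with youth values of 6.39, 8.22 and 7.26, and glutathione reductase Gsr at 1.10 (SE 0.30, limma adjusted p = 0.127). The hour at which knees were taken is not in the labels.

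The genes nearest the threshold were of like size on both sides. Just inside lay the carboxypeptidase-like Cpxm2 (-1.87, SE 0.41, limma adjusted p = 0.0481), the collagen receptor Mrc2 (-1.11, SE 0.24, 0.0489) and the mast cell protease Mcpt10 (1.87, SE 0.41, 0.0489). Just outside lay the Wnt inhibitor Dkk1 (-1.80, SE 0.39, limma adjusted p = 0.05), Maged1 (-1.06, SE 0.23, 0.0506) and the muscle gene Dmd, which encodes dystrophin (-1.13, SE 0.25, 0.0508). Of the 230 called genes, 54 were called in each of 17 alternatives, all but the one with T1 replicate 3 placed with adult: 17 that rose, among them Cd177, Chit1, Il1r2 and the organic anion carrier Slco4c1 (2.54, SE 0.34), and 37 that fell, among them Acta1, Igf2, Matn1, Tnmd and Lpl. In all 18 alternatives each called gene that was tested kept its direction.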

How the data were processed

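Total RNA of 15 knee cartilage samples was hybridised to Affymetrix RaGene 2.0 ST arrays. The authors deposited log2 signals for 36685 probe sets, made with RMA per the submitters' processing notes, whose probe normalization partly removes shifts shared by most transcripts. No source used here names a software version or genome build. No further normalization was applied. Probe sets were named from the platform annotation and RefSeq GRCr8: 18511 had 1 symbol, 575 several and 17599 none, and the brightest stood for a gene (291 genes had several), leaving 18166. With limma 3.58.1 (R 4.3.3), lmFit and eBayes estimated 1 mean for each stage from the 15 arrays together, on 10 residual degrees of freedom, with Benjamini-Hochberg adjustment over all probe sets and a call at 0.05; changes are T2 minus T1, with limma's moderated SE. The script was tested on simulated data.

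The stages compared, the 46 gene lists, the naming rule and 17 alternatives were chosen with earlier results of these data known; 16 further lists and 1 alternative were added after seeing the values. Of 1002 list entries 863 were measured, 11 through an older name. Named were the 15 largest called rises and falls without overlap (leaving out LOC, RGD, Olr, Mir, Snor and Vom symbols), up to 4 called members a list, the gene that moved most where a list had none, called non-coding genes, 3 genes on each side of the threshold, and Col2a1, Acan, Prg4, Col10a1, Sox9, Mmp13, Igf2 and Igf1. Lists with at least 4 measured genes are described by counts and medians, without a set test. The arrays' number limits precision.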

Additional observations from a re-analysis of the deposited data

How the results depend on the processing

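The main count was 327 called probe sets (179 rose, 148 fell). It was 2381 with array weights (1281 and 1100), 1095 with the 9 arrays of T0 to T2 (693 and 402), 604 without the T4 arrays (382 rose), 596 with only the 6 arrays (417 rose, 70.0%), 517 after cyclic loess (313 rose), 193 with the 5 arrays left when T1 replicate 3 is dropped (110 and 83, an alternative chosen after seeing the data), 147 after quantile normalization (63 and 84, 42.9% rises) and 9 with T1 replicate 3 placed with adult (1 and 8, 11.1% rises). Leaving out 1 array gave 108 to 370 probe sets, 50 to 148 rises (40.0% to 54.8%) and 56 to 222 falls. Same-numbered T1 and T2 arrays did not deviate together (correlations of -0.04, -0.03 and 0.02), so the numbers show no pairing; the replicate number as a block gave 148 rises and 123 falls and kept 181 of the 230 gene calls.

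Of the muscle list 18 fell, and 3 did with T1 replicate 3 placed with adult. The adipocyte count of 6 was 0 there, 10 with array weights, 3 with the 5 arrays, and 3 to 6 without 1 array (13 to 21 for muscle). The neutrophil count of 6 was 0 there, 18 with array weights, 19 with only the 6 arrays, 13 with the 5 or the 9 arrays, 12 without T4, and 3 to 6 without 1 array. Prg4 (0.17) ran from -0.20 to 0.75 without 1 array, -0.04 among them, and was -0.02 with T1 replicate 3 placed with adult. The causes were not tested, except that fits on fewer arrays hold fewer degrees of freedom and leave out the wider spread of T3 and T4. Of the 230 called genes, 123 were called without T1 replicate 3 and 2 with it placed with adult. With 3 arrays a stage, differences under about 0.8 were not called.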

Other observations

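A few genes outside the lists stood out by the naming rule or are named here after their values were seen. Pilrb2l4, of a family of paired immune receptors, had 4.11, 2.88 and 2.24 in T1 and 6.30, 5.51 and 6.59 in T2, the largest rise of any gene at 3.06 (SE 0.44, n = 3 a stage, limma adjusted p = 0.00424), and may share probes with near-identical copies. Slco4c1, an organic anion carrier, had 5.27, 4.60 and 5.01 in T1 and 7.38, 7.60 and 7.53 in T2. The growth factors Hgf, which acts on epithelium and muscle precursors, and Nrg1, a ligand of ErbB receptors, rose by 1.09 (SE 0.23) and 1.06 (SE 0.23). Both lie near the threshold: the Hgf call remained in 7 of 18 alternatives and the Nrg1 call in 6 of 17, and both were lost without any single array of the 6 except, for Hgf, T2 replicate 1. Hgf had 5.13, 4.93 and 4.78 in T1 and 5.71, 6.25 and 6.16 in T2.

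Among falls outside the lists, the lysosomal protease Ctsl had 8.68, 8.70 and 8.66 in T1 and 7.73, 6.72 and 6.99 in T2 (-1.53, SE 0.25), the matricellular Smoc2 stood at -1.48 (SE 0.23) and the small heat shock protein Cryab, abundant in muscle, at -2.35 (SE 0.46). Cryab had 8.47, 8.56 and 6.92 in T1, with T1 replicate 3 again the lowest youth array. The Cryab call remained in 10 of 18 alternatives, lost without any single array of the 6 except T1 replicate 3, and the Ctsl call in 12 of 18, lost without T1 replicate 1, T1 replicate 2, T2 replicate 2 or T2 replicate 3. Car3, the carbonic anhydrase of slow muscle and fat, had 10.85, 10.77 and 10.04 in T1 and 8.24, 7.09 and 7.80 in T2 and fell by 2.84 (SE 0.35).

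In 59 called probe sets that rose and 32 that fell, the annotation gave several symbols or none, and they are not named here.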
